A study of Mus musculus with 12 samples.

Results

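Dbp, Tef, Hlf, Nfil3, Ciart, Bhlhe40, Bhlhe41, Nr1d1, Nr1d2 and Usp2 are 10 genes that the circadian clock drives in many tissues, and their RNA was measured in medial prefrontal cortex from female mice. They were taken by symbol from a table of 24411 gene symbols. All 10 had enough counts to be tested, as did 15199 genes in all. The set was selected on measured values: it was drawn up knowing that Dbp and Ciart are higher with stress in these libraries, in WT and in KO. For that reason every difference between stressed and unstressed libraries is given for these genes as a description, without a test.

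The study compared wild type (WT) mice with mice lacking Cav3.1 (KO), a T-type calcium channel encoded by Cacna1g. Both genotypes are on the C57BL/6J background, and animals were 8 to 12 weeks old. Each genotype was either left without stress or given chronic stress, a daily forced swim test or tail suspension test over 5 days. Crossing genotype with stress made 4 groups, each of 3 libraries. All animals lived in a cycle of 12 h light and 12 h dark; the hour at which tissue was taken is not given in the sources used here, so hour of collection and group cannot be told apart. The labels name no promoter or cell type that restricts the knockout. A commercial breeder supplied the WT animals and a bioresource centre the KO animals, so colony and genotype cannot be told apart either. The labels do not state that the libraries of a group are separate animals, and p-values reflect only how far these libraries scatter.

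In the mammalian clock, CLOCK and BMAL1 (the product of Arntl) bind E-boxes and switch on the Per and Cry genes, whose proteins then shut the pair down. The same E-boxes drive output genes. Dbp, Tef and Hlf encode activators with a PAR bZIP domain that bind D-boxes, Nfil3 encodes a repressor of the same D-boxes, and Nr1d1 and Nr1d2 encode the REV-ERB nuclear receptors that repress Arntl. Ciart (CHRONO), Bhlhe40 (DEC1) and Bhlhe41 (DEC2) encode repressors that act on CLOCK and BMAL1 or their E-boxes, and Usp2 encodes a rhythmic deubiquitinase.

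Promoter sequences are shown for the members in which a clock E-box was found outside annotated exons, and for Dbp, the member that differed most between stressed and unstressed KO. RefSeq start sites (GRCm38.p6) were available for 9 of the 10 genes. Within the 250 bases before each start, the E-box CACGTG, the related CACGTT, the D-box TTATGNAA, the ROR element core TAGGTCA and the cAMP response element TGACGTCA were searched on both strands, as was the palindromic glucocorticoid response element with a spacer of any 3 bases. CACGTG occurred in 6.02% and CACGTT in 3.85% of 32851 such windows. Ciart held 3 copies of CACGTG, at 116, 58 and 44 bases before its start, and only 20 windows (0.0609%) held 3 or more. Both Tef starts had 1 copy, at 127 and 138 bases, and Bhlhe41 had 1 at 153 bases. In Nr1d1 the related box lay 28 bases before the start, read as its reverse complement. The stretches lie outside annotated exons and run 5′ to 3′ along the gene, with CACGTG or the CACGTT match in capitals.
Ciart, minus strand, chr3:95882252-95882478: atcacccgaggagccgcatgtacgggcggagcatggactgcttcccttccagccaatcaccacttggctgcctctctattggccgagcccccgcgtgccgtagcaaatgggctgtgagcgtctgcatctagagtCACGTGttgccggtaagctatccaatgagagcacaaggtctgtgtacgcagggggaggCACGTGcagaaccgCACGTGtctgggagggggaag
Tef, second start, plus strand, chr15:81811164-81811413: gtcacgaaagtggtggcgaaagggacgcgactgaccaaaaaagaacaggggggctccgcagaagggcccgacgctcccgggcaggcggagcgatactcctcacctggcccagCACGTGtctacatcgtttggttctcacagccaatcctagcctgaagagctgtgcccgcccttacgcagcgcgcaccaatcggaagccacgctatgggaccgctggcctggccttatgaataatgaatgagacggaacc
Bhlhe41, minus strand, chr6:145865559-145865670: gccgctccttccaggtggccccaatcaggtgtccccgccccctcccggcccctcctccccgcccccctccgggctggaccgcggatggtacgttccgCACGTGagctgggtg
Nr1d1, minus strand, chr11:98775378-98775627: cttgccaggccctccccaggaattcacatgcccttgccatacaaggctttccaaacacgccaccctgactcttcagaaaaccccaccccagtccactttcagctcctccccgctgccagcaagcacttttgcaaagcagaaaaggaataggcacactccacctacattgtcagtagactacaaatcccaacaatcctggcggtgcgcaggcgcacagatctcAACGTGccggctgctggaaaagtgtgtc
Dbp, plus strand, chr7:45704997-45705087: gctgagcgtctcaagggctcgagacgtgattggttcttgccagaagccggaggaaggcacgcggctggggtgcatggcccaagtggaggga

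None of the 6 motifs was found in the window of Dbp, Nr1d2 or Usp2, which says only that these letters are not in those 250 bases. Of the Dbp window, 91 bases lay outside annotated exons. The Usp2 window, chr9:44084670-44084919, belongs to a start inside the annotated span of the gene. Nfil3 held the ROR element core 12 bases before its start, a sequence present in 2.23% of windows. Hlf held the cAMP response element 9 bases before its start, against 1.55% of windows. No member window held the D-box, which 3.07% of windows contain, or the glucocorticoid response element, found in 3 windows of all those searched. A match describes the letters and not binding.

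Total estimated counts ran from 15469590 to 31082240 per library, and the members' counts from 119 to 9955. Levels are given in CPM, estimated counts scaled to the size of each library. Cacna1g stood between 54.6 and 65.95 CPM in KO libraries and between 109.4 and 144.1 CPM in WT libraries. The summed level of 10 olfactory bulb markers was 1076 and 1125 CPM in unstressed WT libraries 1 and 2, against 72.28 to 186.9 CPM in the other 10. None of those markers was at 0 in any library. Meningeal markers stood at 239 and 285.3 CPM in the same 2 libraries and 38.96 to 109.6 CPM elsewhere. Cortical excitatory neuron markers were detected in every library, at 1394 and 1652 CPM in those 2 and 2198 to 2638 CPM in the others. Striatal markers reached 435.5 CPM in stressed KO library 1, against 83.89 to 138 CPM elsewhere. Summed oligodendrocyte markers lay between 1907 and 3316 CPM in stressed WT and between 1294 and 1548 CPM in unstressed WT. They lay between 1403 and 1660 CPM in unstressed KO and at 2741, 1293 and 1227 CPM in stressed KO libraries 1 to 3. The 6 markers of the suprachiasmatic nucleus, the central clock, summed to 46.66 to 73.71 CPM; Vip and Prok2 were detected in every library, and Six6, Nms, Avp and Lhx1 were each at 0 in some. In bulk tissue, fewer cells of a type and less RNA per cell cannot be told apart.

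Dbp lies on chromosome 7 at 45705088 to 45710203 (GRCm38, plus strand) and encodes the D-box activator with the widest daily swing of its family. Libraries 1 to 3 measured 51.2, 58.9 and 45.8 CPM in unstressed WT and 74.4, 76.5 and 87.4 CPM in stressed WT. In unstressed KO they measured 51.4, 58.9 and 56.7 CPM, and in stressed KO 98.2, 111.1 and 121.7 CPM. Every stressed library was above every unstressed library of either genotype, and every stressed KO library was above every stressed WT library. Group means were 52.0 ± 6.58 (SD, n = 3), 79.4 ± 7.00, 55.7 ± 3.84 and 110.3 ± 11.8 CPM in the same order of groups. The log2 fold change with stress was 0.61 ± 0.11 (SE) in WT and 0.99 ± 0.11 in KO, or 1.53-fold and 1.98-fold.

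**Figure D1:**
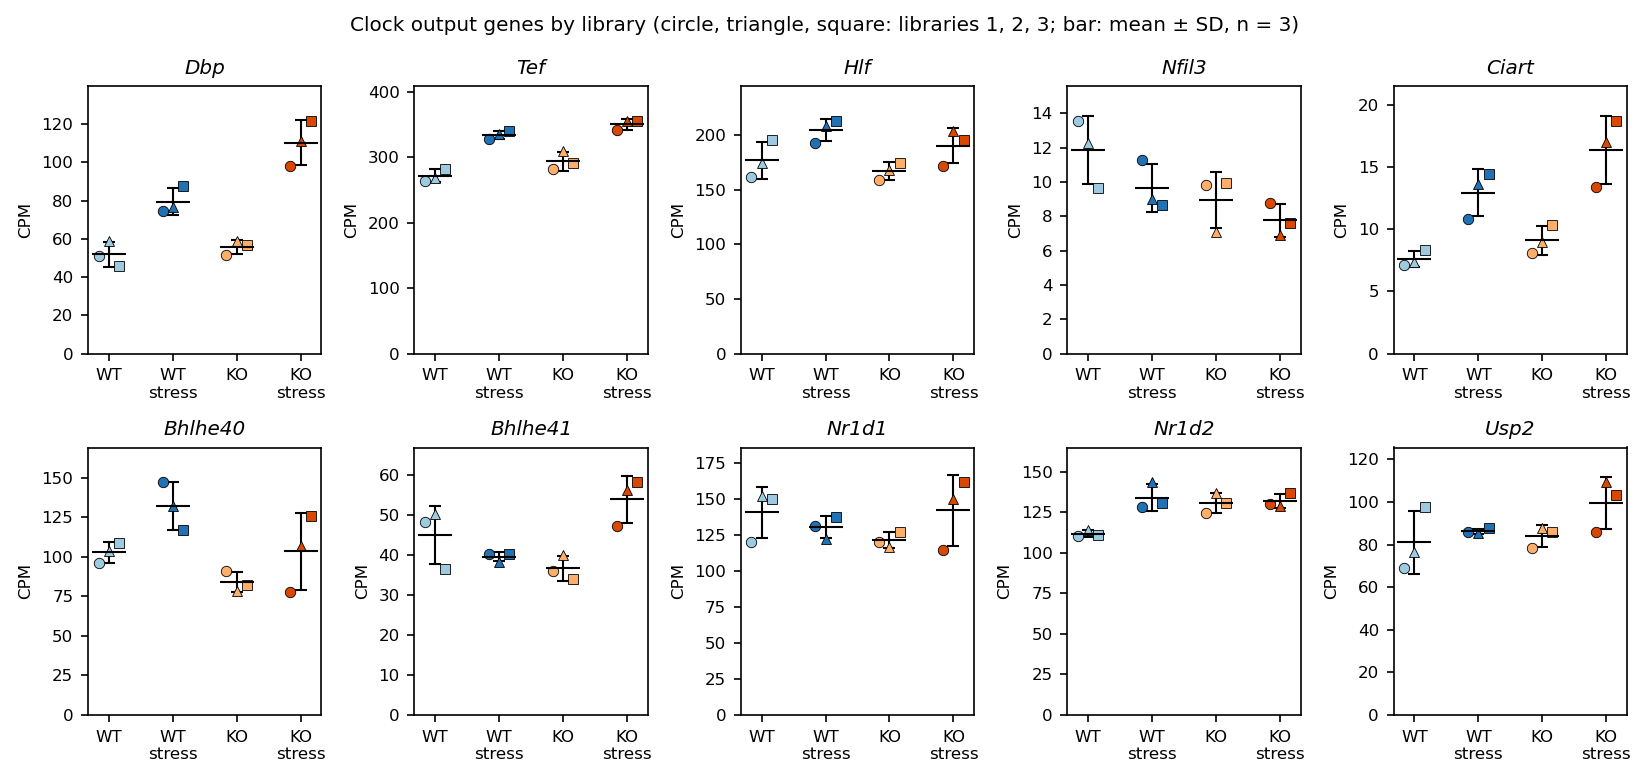
CPM of each of the 10 genes in every library, with circles, triangles and squares for libraries 1, 2 and 3 of a group and bars for the mean ± SD of 3. Each axis starts at 0; the stressed libraries of Dbp, Tef and Ciart lie above the unstressed ones of the same genotype.

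Tef, on chromosome 15 at 81802421 to 81826863 (plus strand), had the highest CPM of the 10 genes. Its libraries stood at 264, 268 and 283 CPM in unstressed WT and 328, 336 and 339.7 CPM in stressed WT. Unstressed KO had 282, 309 and 290.5 CPM and stressed KO 341, 355.5 and 356 CPM. Stressed and unstressed libraries did not overlap in either genotype, as for Dbp, but the step was smaller: 0.30 ± 0.06 in WT and 0.26 ± 0.06 in KO on the log2 scale. Hlf, the other activator (chromosome 11 at 90336536 to 90390895, minus strand), overlapped between stressed and unstressed libraries in both genotypes. It ranged from 161.5 to 195 CPM in unstressed WT, 193 to 213 CPM in stressed WT, 159 to 175 CPM in unstressed KO and 172 to 204 CPM in stressed KO.

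Nfil3, the repressor that competes with these activators at D-boxes, lies on chromosome 13 at 52967209 to 52981073 (minus strand). It was one of the 2 least abundant genes of the set in CPM. Its libraries stood at 13.6, 12.3 and 9.67 CPM in unstressed WT, 11.3, 8.99 and 8.67 CPM in stressed WT, 9.80, 7.07 and 9.96 CPM in unstressed KO, and 8.77, 6.89 and 7.62 CPM in stressed KO. The groups overlapped in both stress comparisons, at log2 -0.30 ± 0.17 in WT and -0.20 ± 0.18 in KO. It was the member with negative values in both.

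The ratio of Dbp to Nfil3 within a library sets an activator against a repressor of 1 kind of site and does not depend on library scaling. It was 4.44 ± 0.57 (SD, n = 3) in unstressed WT, 8.40 ± 1.75 in stressed WT, 6.42 ± 1.67 in unstressed KO and 14.4 ± 2.80 in stressed KO. Stressed and unstressed libraries did not overlap in either genotype (3.78 to 4.79 against 6.61 to 10.1 in WT, and 5.25 to 8.33 against 11.2 to 16.1 in KO). Against Arntl, the target of the REV-ERB receptors, Dbp went from 1.14 ± 0.20 to 2.21 ± 0.47 in WT and from 1.37 ± 0.21 to 3.41 ± 0.26 in KO. The ratio of Dbp to Ciart had group means between 6.16 and 6.90. Single libraries lay between 5.49 and 7.97, and both of these extremes were in unstressed WT. Both genes were known to be higher with stress when the set was drawn up. The ratios of Dbp to Nfil3, Arntl and Ciart are therefore all descriptions. Dbp by itself already separated stressed from unstressed libraries, whereas Nfil3 overlapped.

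**Figure D2:**
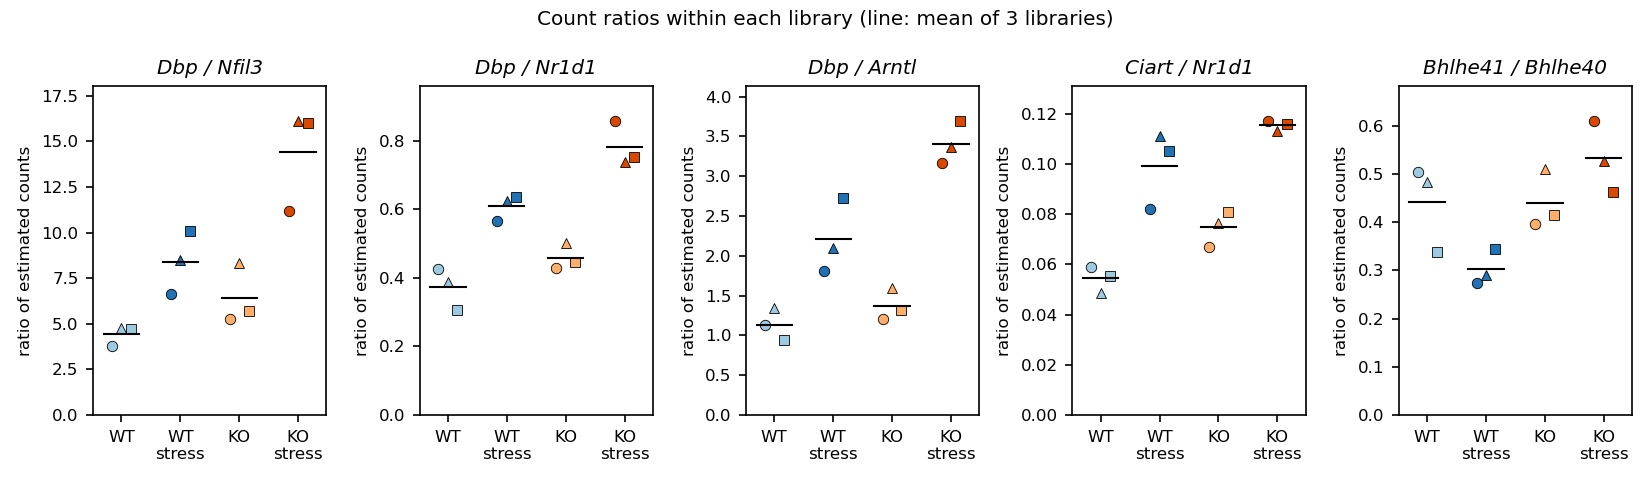
Ratios of estimated counts within each library, with a line at the mean of 3 libraries and circles, triangles and squares for libraries 1, 2 and 3. The Dbp to Nfil3 ratio has group means of 4.44, 8.40, 6.42 and 14.4 from left to right, and Bhlhe41 to Bhlhe40 has its lowest mean, 0.303, in stressed WT.

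Ciart, on chromosome 3 at 95878503 to 95882251 (minus strand), encodes CHRONO, which represses CLOCK and BMAL1 at E-boxes. It was at 7.09, 7.39 and 8.35 CPM in unstressed WT and 10.8, 13.6 and 14.4 CPM in stressed WT. Unstressed KO had 8.05, 8.94 and 10.3 CPM, and stressed KO 13.4, 17.0 and 18.7 CPM. All stressed libraries were above all unstressed ones, of either genotype. The log2 fold change was 0.77 ± 0.15 in WT and 0.84 ± 0.15 in KO (1.70-fold and 1.80-fold).

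Bhlhe40 and Bhlhe41 encode related E-box repressors, DEC1 and DEC2, and both lie on chromosome 6 (108660629 to 108666925, plus strand, and 145858243 to 145865558, minus strand). Bhlhe40 had 95.9, 103.9 and 108.7 CPM in unstressed WT, 147.1, 131.9 and 116.9 CPM in stressed WT, 91.3, 78.7 and 82.1 CPM in unstressed KO, and 77.7, 107.0 and 125.6 CPM in stressed KO. The WT groups did not overlap, whereas stressed KO library 1 was lower than all 3 unstressed KO libraries. In Bhlhe41 it was the KO groups that stood apart. It had 48.2, 50.25 and 36.7 CPM in unstressed WT, 40.2, 38.4 and 40.4 CPM in stressed WT, 36.1, 40.15 and 34.0 CPM in unstressed KO, and 47.3, 56.3 and 58.2 CPM in stressed KO. Its groups overlapped in WT (log2 -0.18 ± 0.12) and did not in KO (0.55 ± 0.12). Within libraries the ratio of Bhlhe41 to Bhlhe40 was 0.303 ± 0.04 in stressed WT and 0.533 ± 0.07 in stressed KO, with ranges of 0.273 to 0.345 and 0.463 to 0.609.

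Nr1d1 (chromosome 11, 98767932 to 98775333, minus strand) and Nr1d2 (chromosome 14, 18204054 to 18239127, minus strand) encode REV-ERBα and REV-ERBβ. Nr1d1 overlapped in both stress comparisons: 120.2 to 151.9 CPM in unstressed WT, 122.5 to 137.8 CPM in stressed WT, 117 to 127.4 CPM in unstressed KO and 114.6 to 161.7 CPM in stressed KO. Nr1d2 stood at 110.4, 114 and 110.8 CPM in unstressed WT, below its 128, 143.3 and 130.5 CPM in stressed WT. Unstressed KO had 124.7, 137 and 130.6 CPM and stressed KO 129.9, 128.9 and 137 CPM, which overlap. Its log2 fold change with stress was 0.26 ± 0.07 in WT and 0.01 ± 0.07 in KO. Usp2 (chromosome 9, 44067021 to 44095627, plus strand) also overlapped, with 69.1 to 97.7 CPM in unstressed WT, 85.4 to 87.6 CPM in stressed WT, 78.4 to 88.0 CPM in unstressed KO and 85.9 to 109.2 CPM in stressed KO.

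Across the set, the stressed libraries were all above the unstressed ones for 5 of 10 genes in WT (Dbp, Tef, Ciart, Bhlhe40 and Nr1d2) and for 4 of 10 in KO (Dbp, Tef, Ciart and Bhlhe41). Among all 15199 genes tested, 19.4% had such a layout in WT and 8.46% in KO, and 1.24% had it in both, as did Dbp, Tef and Ciart. The median log2 fold change of the 10 genes was 0.24 in WT and 0.25 in KO, against 0.002 and -0.004 over all genes. Since the stress response was part of the choice of genes, nothing is read from these counts.

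**Figure D3:**
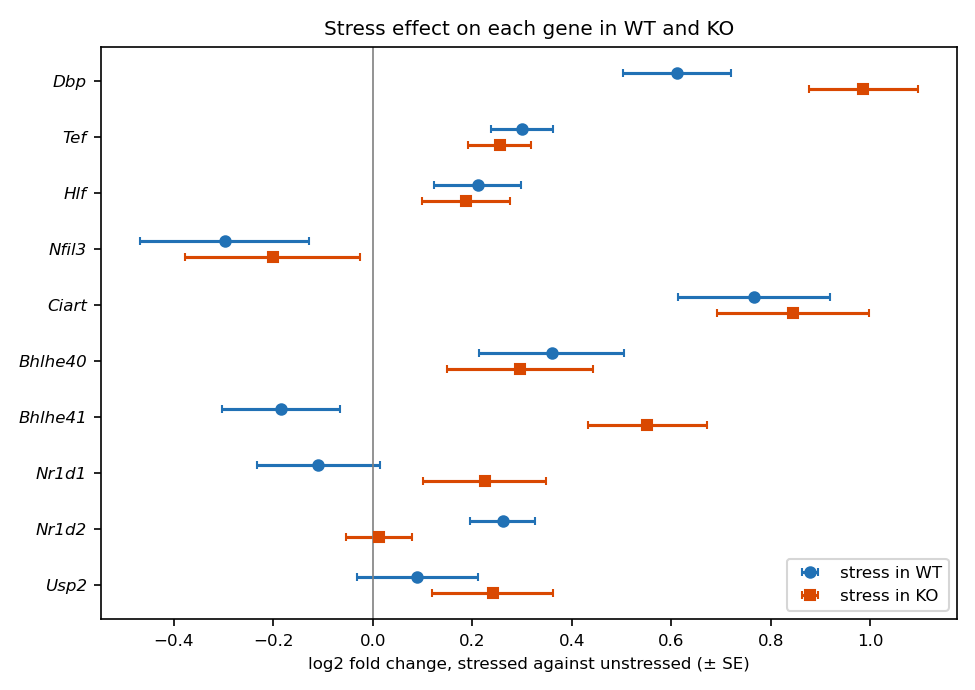
Log2 fold change of stressed against unstressed libraries for each gene, in WT (circles) and KO (squares), with bars of ± 1 SE from the fit of all 12 libraries. Dbp and Ciart lie farthest to the right in both genotypes, and Bhlhe41 lies on opposite sides of 0 in WT and KO.

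Several WT values depended on the unstressed WT libraries with high olfactory bulb markers. Without libraries 1 and 2 of that group, which leaves 1 unstressed WT library, the log2 fold change with stress in WT was 0.79 for Dbp, 0.63 for Ciart, 0.24 for Tef, 0.28 for Bhlhe40 and 0.27 for Nr1d2. The sign turned for Bhlhe41 (to 0.11) and Usp2 (from 0.09 to -0.18). Nfil3 came to -0.007, and Hlf went from 0.21 to 0.07. When the olfactory bulb score entered the fit as a covariate, Bhlhe41 was at 0.16, Usp2 at -0.07 and Hlf at 0.09. Bhlhe40 then moved the other way, from 0.36 to 0.65. Without stressed KO library 1, high in striatal markers, KO values were 1.06 for Dbp, 0.97 for Ciart, 0.64 for Bhlhe41 and 0.47 for Bhlhe40. That library was the lowest of its group for 8 of the 10 genes. Library 1 was also the lowest for 7 of 10 in unstressed WT, 6 in unstressed KO and 5 in stressed WT. How many of all genes were lowest in these libraries was not counted, so nothing is read from these numbers. Bhlhe40 in KO was at 0.30 with all libraries and 0.13 without stressed KO library 3. Over all alternatives run, Dbp ranged from 0.52 to 0.79 in WT and 0.91 to 1.06 in KO, and Ciart from 0.63 to 0.88 and from 0.74 to 0.97. Activity-induced genes such as Fos, Arc and Npas4, all 10 of them detected in every library, summed to 269.2 to 381 CPM in unstressed WT and 462.9 to 599.5 CPM in stressed WT. In KO their sums were 205.2 to 269.8 CPM and 224 to 466.6 CPM. Their part in the clock gene values, and that of the oligodendrocyte markers, was not tested.

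The level per kilobase of exon put Nr1d1 and Tef first in all 4 groups. Unstressed WT had 45.8 ± 5.80 CPM per kilobase for Nr1d1 and 34.5 ± 1.24 for Tef, whose libraries did not overlap there and overlapped in the other 3 groups. Hlf followed at 26.5 ± 2.55, then Bhlhe40 and Nr1d2, whose libraries overlapped, at 21.9 ± 1.38 and 20.7 ± 0.37. Dbp and Usp2 overlapped at 17.4 ± 2.20 and 16.8 ± 3.08. Bhlhe41 and Nfil3 overlapped at 6.70 ± 1.09 and 5.84 ± 0.98, and Ciart was lowest at 3.36 ± 0.29. In stressed KO, Dbp stood at 36.9 ± 3.93 CPM per kilobase, below Tef at 44.6 ± 1.07 and above Hlf at 28.5 ± 2.45 with no overlap on either side. Ciart stood above Nfil3 in that group, at 5.93 to 8.27 against 3.40 to 4.33, also without overlap.

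Without stress, 1 of the 10 genes differed between KO and WT past the threshold, an adjusted p under 0.05 in edgeR's quasi-likelihood test. Nr1d2 was higher in unstressed KO than in unstressed WT by log2 0.23 ± 0.07 (1.17-fold, adjusted p = 0.0304), with all 3 KO libraries above all 3 WT libraries. The background was large, since 23.2% of all genes passed in this comparison, so 1 of 10 members is no more than that share. At an unadjusted p under 0.05 there were 3 of 10 members, against 39.1% of genes. Nfil3 and Bhlhe41 had log2 differences of -0.40 ± 0.17 and -0.29 ± 0.12 that did not pass (adjusted p = 0.103 and 0.089). Libraries did not overlap for 2 of 10 genes, Nr1d2 and Bhlhe40 (lower in KO, log2 -0.29 ± 0.15, adjusted p = 0.163), against 36.5% of all genes in either direction. The Nr1d2 difference kept its size, log2 0.24, without unstressed WT libraries 1 and 2 but not its call (adjusted p = 0.304). The call was also lost without unstressed WT library 1 (adjusted p = 0.0829) or 2 (0.102) alone, without unstressed KO library 2 (0.0919) or 3 (0.0657), with the olfactory bulb covariate (0.341) and with only these 2 groups in the fit (0.0869).

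Among stressed animals, 0 of the 10 genes passed between genotypes, where 0.25% of all genes did. At an unadjusted p under 0.05 there were 4 of 10, against 13% of genes, and DESeq2 called 2, Dbp and Bhlhe41, against 1.91% of genes. Dbp was higher in stressed KO than in stressed WT by log2 0.47 ± 0.11 (1.39-fold; edgeR adjusted p = 0.113, DESeq2 adjusted p = 0.00997). Bhlhe41 was higher by 0.44 ± 0.12 (edgeR adjusted p = 0.144, DESeq2 adjusted p = 0.0415, and 0.0498 in edgeR with the olfactory bulb covariate). Without unstressed WT library 3, which enters only through the shared spread, edgeR called both. When any single stressed library was left out, edgeR called neither. The adjusted p was then 0.11 to 0.338 for Dbp and 0.147 to 0.412 for Bhlhe41. With the olfactory bulb covariate edgeR did not call Dbp (adjusted p = 0.0736). Libraries did not overlap for 3 of 10 genes, Dbp, Tef and Bhlhe41, all higher in KO. Of all genes, 10.8% had no overlap in that direction, a share that leaves out genes lower in KO. This comparison, like the average over stress that follows, shares its stressed libraries with the stress contrasts by which the set was chosen. The p-values of Dbp and Ciart in both, and the counts that include these genes, are therefore descriptions. Averaged over stress, 1 of 10 genes passed, against 6.33% of all genes, and 5 of 10 had an unadjusted p under 0.05, against 27.4%. It was Dbp, higher in KO by log2 0.29 ± 0.08 (edgeR adjusted p = 0.0486). That call sat at the threshold: its adjusted p ran from 0.0346 to 0.12 when single libraries were left out, holding only without unstressed WT library 3 or stressed KO library 1. It was 0.137 with the olfactory bulb covariate. Ciart (0.30 ± 0.11), Nfil3 (-0.36 ± 0.12) and Bhlhe40 (-0.32 ± 0.10) did not pass, with edgeR adjusted p of 0.107, 0.0929 and 0.0804, though DESeq2 called Bhlhe40 beside Dbp, against 12.5% of genes.

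**Figure D4:**
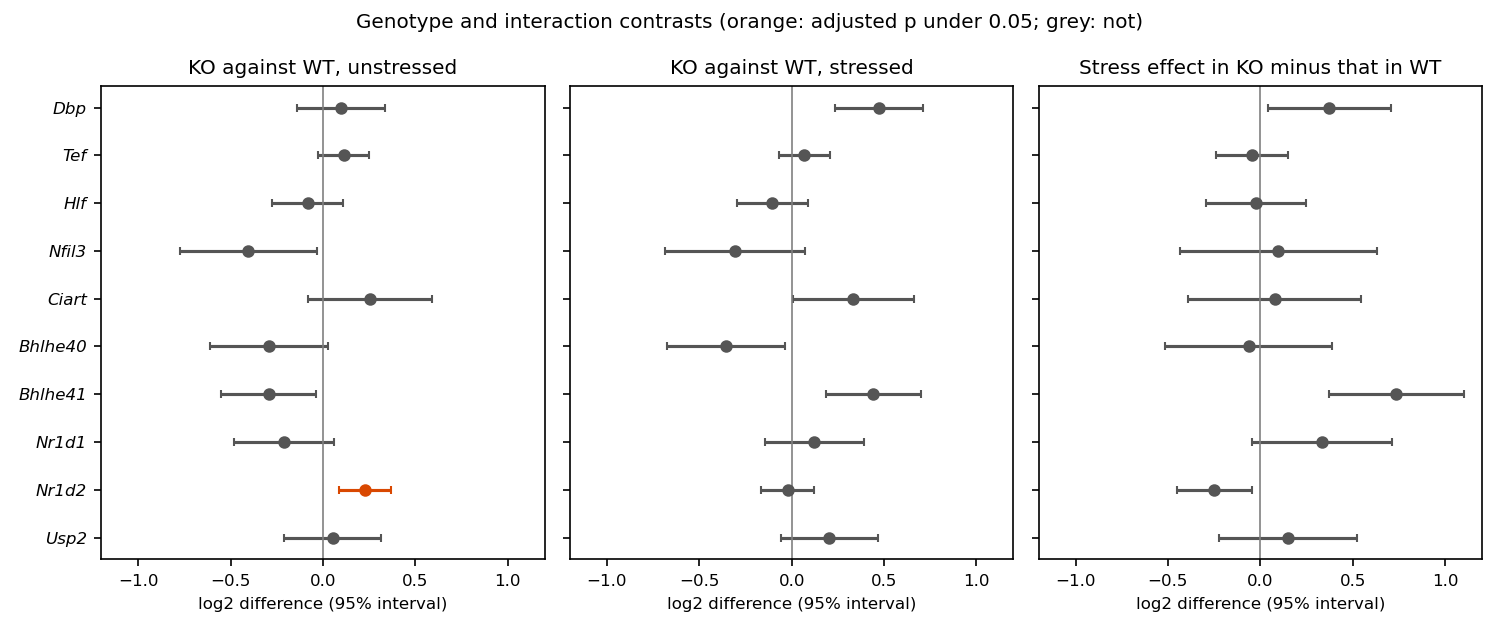
Differences on the log2 scale with 95% intervals, unadjusted for the number of genes: KO against WT without stress (left), with stress (middle), and the stress effect in KO minus that in WT (right). Orange marks an edgeR adjusted p under 0.05, reached by Nr1d2 without stress alone in these 3 panels.

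Whether the stress effect differed between genotypes was tested as an interaction, the stress effect in KO minus that in WT. In edgeR 0 of the 10 genes passed, beside 0% of all genes. At this contrast 3 of 10 members had an unadjusted p under 0.05, against 28.5% of genes, and DESeq2 called 1 member, Bhlhe41, against 12.3% of genes. Bhlhe41 differed most, by log2 0.74 ± 0.17 (95% interval 0.37 to 1.10; edgeR adjusted p = 0.053, DESeq2 adjusted p = 0.00356). This rested in part on the unstressed WT libraries: the difference was 0.44 without libraries 1 and 2 of that group (edgeR adjusted p = 0.316) and 0.88 without library 3 (adjusted p = 0.00177). The interaction is built from the same stress effects by which the set was chosen, so for Dbp and Ciart the differences are given as values only. The counts of members above include both genes, and Dbp is among the 3, so nothing is read from those counts. For Dbp the difference was 0.37 ± 0.15, at 0.19 without libraries 1 and 2 and 0.47 without library 3, and for Ciart it was 0.08 ± 0.22. Nr1d2 differed by -0.25 ± 0.09 (-0.45 to -0.05; edgeR adjusted p = 0.112). For Tef the interval ran from -0.24 to 0.15 around -0.05, so differences of that size between genotypes are not resolved.

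The core loop that drives these outputs was tested on a list of 17 genes, all of them measured. In WT 1 gene was higher and 2 were lower with stress in edgeR, 3 of 17 against 21.9% of all genes. The higher gene was Per2, a repressor of the loop (30.7 ± 7.00 CPM without and 42.6 ± 3.17 CPM with stress, log2 0.47 ± 0.14, adjusted p = 0.0353). Arntl fell by 0.33 ± 0.09 (46.0 ± 2.51 to 36.5 ± 4.48 CPM, adjusted p = 0.0309), and Cry1, another repressor, fell by 0.36 ± 0.11 (adjusted p = 0.0398). None of the 3 passed without unstressed WT libraries 1 and 2, nor without any one of unstressed WT library 1 or 2 or stressed WT library 2 or 3. In KO 0 of 17 passed in edgeR, against 0.0197% of all genes, with 8 of 17 at an unadjusted p under 0.05, against 9.2% of genes. DESeq2 called Per1 and Per3 there, against 0.289% of genes. The KO values were 0.58 ± 0.09 for Per1, 0.64 ± 0.11 for Per3, 0.50 ± 0.14 for Per2 and -0.34 ± 0.10 for Arntl on the log2 scale. Averaged over genotypes 0 of 17 passed in edgeR, against 0.0395% of all genes, with 5 at an unadjusted p under 0.05, against 23.8%. The smallest adjusted p belonged to Per1 (0.0576), Arntl (0.059), Per2 (0.0596) and Per3 (0.0658), and DESeq2 called these 4, against 7.91% of genes.

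**Figure D5:**
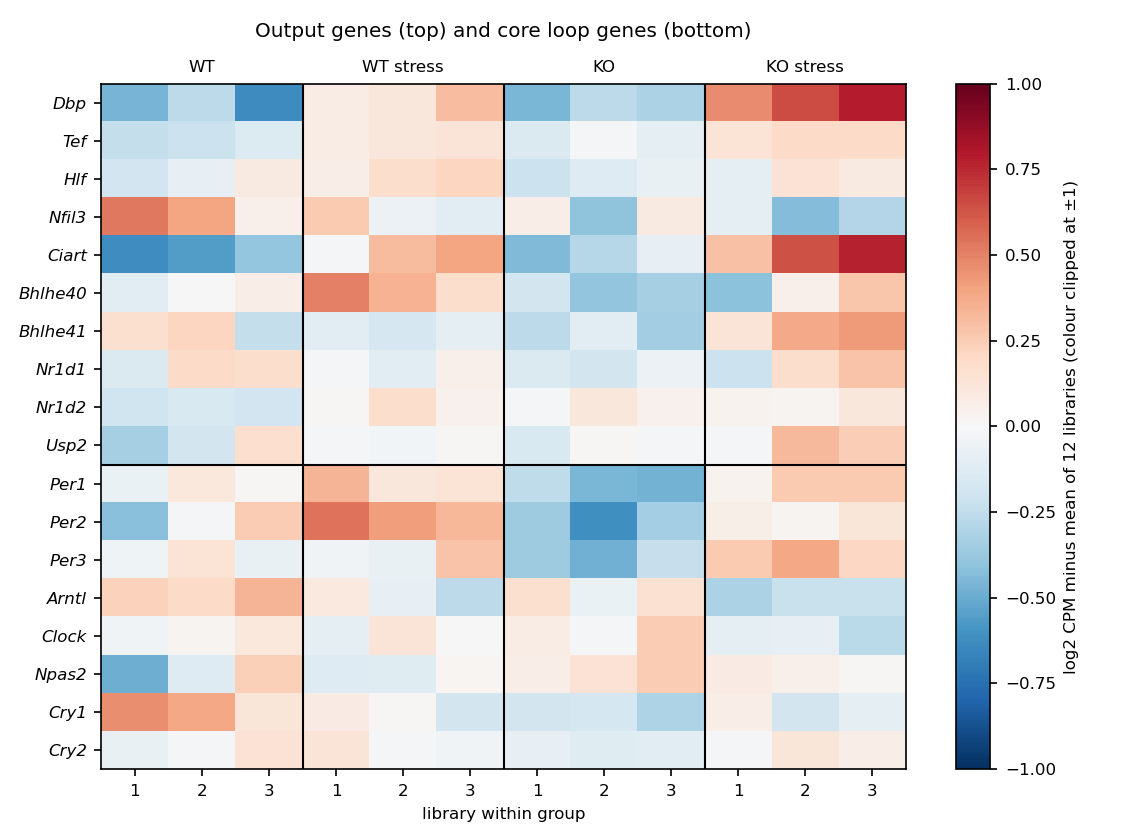
Log2 CPM of each gene minus its mean over the 12 libraries, for the 10 output genes above the line and 8 core loop genes below it, with libraries 1 to 3 of each group in columns. Colours stop at ± 1. Dbp and Ciart are higher in every stressed library than in any unstressed one, and Arntl has its lowest mean in stressed KO.

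A list of 12 other genes with daily rhythms in many tissues had 3 higher and 2 lower with stress in WT by edgeR, 5 of 12 against 21.9% of all genes. Klf10, a Krüppel-like factor, went from 21.7 ± 2.86 to 38.1 ± 2.12 CPM (log2 0.81 ± 0.11, adjusted p = 0.0103). The glucocorticoid-induced genes Tsc22d3 (0.70 ± 0.11, adjusted p = 0.0107) and Klf9 (0.36 ± 0.08, adjusted p = 0.0149) were higher too. Lonrf3 fell by 0.70 ± 0.17 (adjusted p = 0.0195) and Cirbp, a cold-inducible RNA-binding protein, fell by 0.48 ± 0.14 (adjusted p = 0.0353). None of the 5 passed without unstressed WT libraries 1 and 2, nor without unstressed WT library 2 or stressed WT library 2 alone. In KO 0 of 12 passed in edgeR or DESeq2, against 0.0197% and 0.289% of all genes, with 4 at an unadjusted p under 0.05 in edgeR, against 9.2%. Averaged over genotypes 1 of 12 passed in edgeR, against 0.0395% of all genes: Klf10 (0.58 ± 0.08, adjusted p = 0.0297). When single libraries were left out, that call held only without unstressed WT library 3 or stressed KO library 1. Leo1, also among the 4 with the smallest p for averaged stress, did not pass (-0.24 ± 0.07, edgeR adjusted p = 0.0842). With stress, Klf9 and Tsc22d3 were lower in KO than in WT (-0.45 ± 0.08, adjusted p = 0.0427, and -0.62 ± 0.11, adjusted p = 0.0486), also without unstressed WT libraries 1 and 2. Neither passed without any one of the 3 stressed KO libraries, unstressed WT library 1 or 2, stressed WT library 2 or 3, or unstressed KO library 1, and Klf9 was also lost without unstressed KO library 2 or 3. Tsc22d3 stood at 44.75 to 57.9 CPM in stressed WT and 32.45 to 34.1 CPM in stressed KO. The interaction did not pass for Tsc22d3 (-0.74 ± 0.16, adjusted p = 0.0507) or Klf9 (-0.42 ± 0.11, adjusted p = 0.0609) in edgeR, and DESeq2 called both.

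Some members share exon bases with a tested gene on the opposite strand, and the strand setting used in counting is not given in the sources used here. Dbp overlaps Sphk2, a sphingosine kinase, over 539 bases, Nr1d1 overlaps Thra, a thyroid hormone receptor, over 263 bases, and Bhlhe40 overlaps 0610040F04Rik over 118 bases. Sphk2 had log2 -0.16 ± 0.08 with stress in WT and -0.02 ± 0.08 in KO, and its group means were between 22.8 and 29.0 CPM. The ratio of Dbp to Sphk2 within a library went from 1.80 ± 0.24 to 3.09 ± 0.39 in WT and from 2.42 ± 0.16 to 4.83 ± 0.41 in KO, again as a description. Without stress, Sphk2 was lower in KO than in WT (log2 -0.33 ± 0.08, edgeR adjusted p = 0.0158), and Dbp differed by 0.10 ± 0.11. Thra had 0.23 ± 0.11 with stress in WT and -0.04 ± 0.11 in KO. It was higher in unstressed KO than in unstressed WT (0.32 ± 0.11, edgeR adjusted p = 0.0474), where 23.2% of all genes passed. The transcript 0610040F04Rik was below 1 CPM in every library.

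Over the 12 libraries, the log2 CPM of Ciart tracked that of Tef most closely of 15198 genes (Pearson r = 0.951), followed by Dbp (0.935). Outside the set its nearest genes included BC004004 (0.934), Pddc1 (0.933), Capns1 (0.922) and Mvd (0.919). For Dbp they included Pcyt2 (0.939), Pgap2 (0.929), Rpusd3 (0.912) and Mrpl38 (0.885), and Arntl ranked 15196 with r = -0.895. These values carry the differences between the 4 groups. After the group means were subtracted, r between Dbp and Ciart was 0.487 (rank 1663) and between Dbp and Arntl -0.527 (rank 14435). Between Ciart and Arntl, r was -0.849 before the subtraction and -0.153 after it (rank 9550). Tef then had r = 0.611 with Ciart (rank 624) and r = 0.265 with Dbp (rank 3900). The nearest genes to Dbp were then Ptgdr (0.953), Zc3hav1 (0.921), Rsu1 (0.918), Olfml2a (0.917) and Slc26a7 (0.907), with Bhlhe41 at 0.773. For Ciart they were Dusp22 (0.935), Npas4 (0.915), Dusp1 (0.912), Adra1b (0.90) and Ctsb (0.898), with Hlf at 0.859. Npas4 and Dusp1 are induced by neuronal activity. The libraries share group, tissue composition and scaling, so these correlations are descriptions.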

How the data were processed

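The deposited table of the authors holds an estimated count, not normalised, for each symbol and each of the 12 libraries. The submitters' processing notes name Trim Galore 0.6.6, STAR 2.7.9a, RSEM 1.3.1, DESeq2 1.36.0 and the build mm10; the annotation is not given in the sources used here, nor is the strand setting of the counting. Here the estimated counts were rounded and tested with edgeR 4.0.16 (R 4.3.3; quasi-likelihood, TMM factors, filterByExpr with minimum count 10 and minimum total 15). The design had 4 group means and 8 residual degrees of freedom. The 7 two-sided contrasts were adjusted by Benjamini-Hochberg over 15199 genes, with a threshold of 0.05. Fold changes carry that fit's standard errors. Log2 CPM used a prior count of 2.

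The members and gene lists were chosen with earlier results of these data known. The genes named were the 10 members and, of each other clock list, those past the threshold in a stress contrast plus the 4 with the smallest p for averaged stress. Named too were the 5 genes most like Dbp and Ciart (some are not reported here), tested genes with overlapping exons, and Cacna1g; Fos, Arc and Npas4 stand as examples of a marker list. Alternatives were DESeq2 1.42.0, its size factors in edgeR, no filter, a replicate block, fewer groups, an olfactory bulb covariate and leaving out libraries. DESeq2 was run on every gene with any count. Its percentages set the genes it called against the 15199 genes tested in edgeR, so they are approximate. The test was tried on simulated data. Libraries within a group differed beyond counting noise (chi-square over its degrees of freedom 4.9 to 71.1), so each was kept. Positions and exon lengths come from GENCODE M21 (GRCm38), start sites and promoter sequences from RefSeq. Olfactory bulb scores are mean log2 CPM over the marker list, centred over the 12 libraries.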

Additional observations from a re-analysis of the deposited data

How the results depend on the processing

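Counts of genes called changed widely with the processing, and some calls and signs of the members changed too. With the olfactory bulb score as covariate, and without unstressed WT libraries 1 and 2, the count for stress in WT went from 3322 to 0 and 0, for averaged stress from 6 to 1 and 1, for genotype without stress from 3529 to 14 and 18, and for averaged genotype from 962 to 36 and 78. The covariate gave 6 genes for stress in KO and 71 for genotype with stress, against 3 and 38. The log2 fold change of Dbp with stress in WT was 0.764 and 0.794 in these settings. With only the groups compared, 1 gene was called for stress in WT and 18 for genotype without stress. DESeq2 called 44 genes for stress in KO, 1203 for averaged stress, 290 for genotype with stress, 1900 for averaged genotype and 1869 for the interaction, which had 0 in edgeR, 198 with DESeq2's size factors and 143 without a filter. Differences that turned in sign with the covariate and without the 2 libraries were, for genotype without stress, Bhlhe41 (0.037 and 0.002) and Usp2 (-0.101 and -0.217), and for the interaction Tef (0.003 and 0.015), Hlf (0.085 and 0.12) and Nfil3 (-0.126 and -0.192). Without the 2 libraries the interaction of Bhlhe40 (0.018) and the averaged genotype difference of Usp2 (-0.006) turned as well; none of these had passed. The cause was not tested. Leaving out 1 library of the groups compared at a time, counts ran from 0 to 5635 for stress in WT (0 without unstressed WT library 2 or stressed WT library 2, 5635 without unstressed WT library 3), 1 to 5 for stress in KO, 2 to 3003 for averaged stress, 234 to 5729 for genotype without stress, 19 to 26 for genotype with stress, 164 to 3308 for averaged genotype and 0 to 3851 for the interaction. Untested stress differences near 0 that turned in sign were those of Usp2 in WT (0.09 to -0.011 without unstressed WT library 1) and Nr1d2 in KO (0.013 to -0.021 without unstressed KO library 1 and -0.016 without stressed KO library 3). Genotype and interaction differences that turned were those of Usp2 without stress (-0.054 to 0.197), Nr1d2 with stress (-0.055 to 0.028), Nr1d1 averaged (-0.096 to 0.023), and the interactions of Hlf (-0.086 to 0.046), Nfil3 (-0.05 to 0.238), Ciart (-0.04 to 0.205) and Bhlhe40 (-0.23 to 0.105). Over all genes, most same-numbered libraries were not alike: of 18 pairs 4 had deviations correlated above 0.1 (r from -0.246 to 0.364). Among the 10 members, library 1 was the lowest of its group for 7 genes in unstressed WT and 5 in stressed WT. In unstressed KO it was the lowest for 6 and in stressed KO for 8. Library 3 was the highest for 5 members in unstressed WT, 7 in stressed WT, 4 in unstressed KO and 7 in stressed KO. The share of all genes with such a layout was not counted, so nothing is read from these member counts. The reason was not tested. With the replicate block, 25 genes were called for averaged stress, and for averaged genotype Ciart passed (adjusted p = 0.0394) and Dbp did not (0.0512). Intervals and errors cover these libraries only.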
